A study of Mus musculus with 60 samples.

Results

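The DNA repair and replication genes on the nanoString Mouse Neuroinflammation Panel were examined in 3 brain regions of mice with and without a mammary tumor. Members were chosen by symbol: family names such as those that begin with Rad and a digit, Fanc, Ercc, Xrcc, Pms, Mcm, Pol, Parp, Rpa or Lig, together with a fixed set that includes Atm, Atr, Brca1, Chek1, Pcna, Prkdc, Cdc7 and E2f1. This rule took 46 of the 770 genes measured, and no measured value entered it. It was set, like the gene lists used below, with earlier results of these data known. Female Balb/C mice received an orthotopic injection of 67NR cells, a mammary carcinoma line that does not metastasize, or of DMEM as the vehicle, and were collected 25 days later at 13 weeks of age. Collection was in the middle of the dark phase (ZT19) or of the light phase (ZT7), with 5 mice in each of the 4 groups, and hippocampus, hypothalamus and brain stem were taken from each mouse. Of 60 samples listed, 56 had values: 20 of hippocampus, 17 of hypothalamus (3 vehicle mice at mid dark and 4 at mid light) and 19 of brain stem (4 vehicle mice at mid dark). The vehicle injection contained no cells, so a tumor-bearing mouse differed from its control by the injected cells and the tumor together, and a single tumor line was used.

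DNA lesions are sensed by the kinases ATM, ATR and DNA-PK, which act on checkpoint proteins that hold the cell cycle while repair proceeds. Breaks are joined end to end or copied from the sister strand by homologous recombination, damaged bases are cut out by base excision repair, and crosslinks are handled by the Fanconi anemia proteins. The MCM proteins form the replicative helicase, which is loaded in dividing cells, while most neurons of the adult brain do not divide but still repair their DNA. A bulk sample cannot tell fewer cells of a type from less RNA per cell, which holds for every difference below.

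Values are log2 expression after quantile normalization by the study, so a difference of 1 is a 2-fold difference, and each is relative to the other genes of the same sample. Sample medians lay between 8.07 and 8.09. Probes differ between genes, so levels were compared between samples of the same gene only. Over all samples the mean was under 5 for 4 of the 46 members (Brca1, Exo1, Fancd2 and Rad51b), and member values ran from 3.09 to 10.7. The region labels were set against marker genes. The summed level of 6 forebrain neuron markers, which the probes with the strongest signal carry, was 13.53 to 14.04 in hippocampus against 11.08 to 11.73 in hypothalamus and 11.45 to 12.12 in brain stem. Against brain stem 4 of the 6 were higher in hippocampus, Eomes was lower (-0.84 ± 0.27, adjusted p = 0.00446) and Reln did not pass the test (-0.19 ± 0.09, adjusted p = 0.059). The summed level of 6 oligodendrocyte markers was highest in brain stem (16.35 to 16.53, against 14.36 to 15.72 in hippocampus and 15.32 to 16.06 in hypothalamus). All 4 T cell markers had means under 5 in each region. The choroid plexus marker Ttr varied widely within hippocampus (5.36 to 14.71) and brain stem (6.49 to 13.77), and its part in the results was not tested. The RNA purity ratio, from absorbance, was under 1.8 in 5 brain stem samples, 3 of them from tumor-bearing mice at mid dark, and in 1 hippocampus sample.

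Mcm2, Mcm5 and Mcm6 encode subunits of the same helicase and are shown with the sequence upstream of their start sites because their regional patterns, given further on, were unlike each other. The stretches are the 170 bases before the RefSeq start site in GRCm38.p6, printed 5′ to 3′ on the strand of the gene, with 4 E2F-type motifs (TTTCGCGC, TTTGGCGC, TTTCCCGC and TTTGGCGG, searched on both strands) in capitals where found.
Mcm2 (chr6:88898781-88898950, minus strand): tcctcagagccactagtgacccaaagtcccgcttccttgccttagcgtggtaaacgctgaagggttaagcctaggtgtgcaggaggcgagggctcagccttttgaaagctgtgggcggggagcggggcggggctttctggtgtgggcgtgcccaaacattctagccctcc
Mcm5 (chr8:75109339-75109508, plus strand): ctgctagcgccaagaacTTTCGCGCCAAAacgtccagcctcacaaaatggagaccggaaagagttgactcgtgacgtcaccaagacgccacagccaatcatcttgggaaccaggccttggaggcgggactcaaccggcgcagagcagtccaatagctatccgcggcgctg
Mcm6 (chr1:128359706-128359875, minus strand): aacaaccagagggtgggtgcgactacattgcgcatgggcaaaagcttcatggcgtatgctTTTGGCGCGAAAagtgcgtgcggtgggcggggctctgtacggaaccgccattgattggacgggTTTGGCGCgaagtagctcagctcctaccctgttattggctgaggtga
Mcm5 held 2 overlapping motifs here and Mcm6 held 3, of which 2 overlap, while Mcm2 held none of these letters. E2F1 is a transcription factor known for driving genes of the S phase. Of 36 members with a promoter in the RefSeq table (250 bases before and 50 after the start), 13 held at least 1 of the motifs (36.1%), against 5.82% of 601 panel genes and 2.7% of 27025 symbols with an entry. Both of these background shares include the members themselves. The members with a motif were Bard1, Cdc25a, Chek1, Chek2, Fancg, Lig1, Mcm5, Mcm6, Mdc1, Rad51c, Rpa1, Topbp1 and Xrcc6. A match describes the letters only and was not set against binding data.

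Between regions, differences among the members were frequent and ran both ways. Hippocampus differed from hypothalamus in 29 of 46 members (limma, mouse as a random block, Benjamini-Hochberg adjusted p under 0.05), against 71.7% of all 770 genes, with 14 higher (30.4% of members, 30.3% of all genes) and 15 lower (32.6% and 41.4%). Hippocampus differed from brain stem in 35 members (76.1%, against 76.6% of all genes), with 14 higher (background 34.9%) and 21 lower (background 41.7%). Hypothalamus differed from brain stem in 28 members (60.9%, against 66.5%), with 12 higher (background 36.1%) and 16 lower (background 30.4%). The shares of members called were near those of the whole panel, and the median absolute log2 difference was 0.27, 0.24 and 0.17 for members against 0.26, 0.33 and 0.23 for all genes in the same order. In none of the 3 comparisons were 7 members called (15.2%, against 11.8% of all genes): Chek1, Exo1, Fancg, H2afx, Ogg1, Rad51b and Xrcc6. Where ranges without overlap between regions are given below, the members were picked for their large differences. How many other genes of the panel separate regions in this way was not counted.

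**Figure D1:**
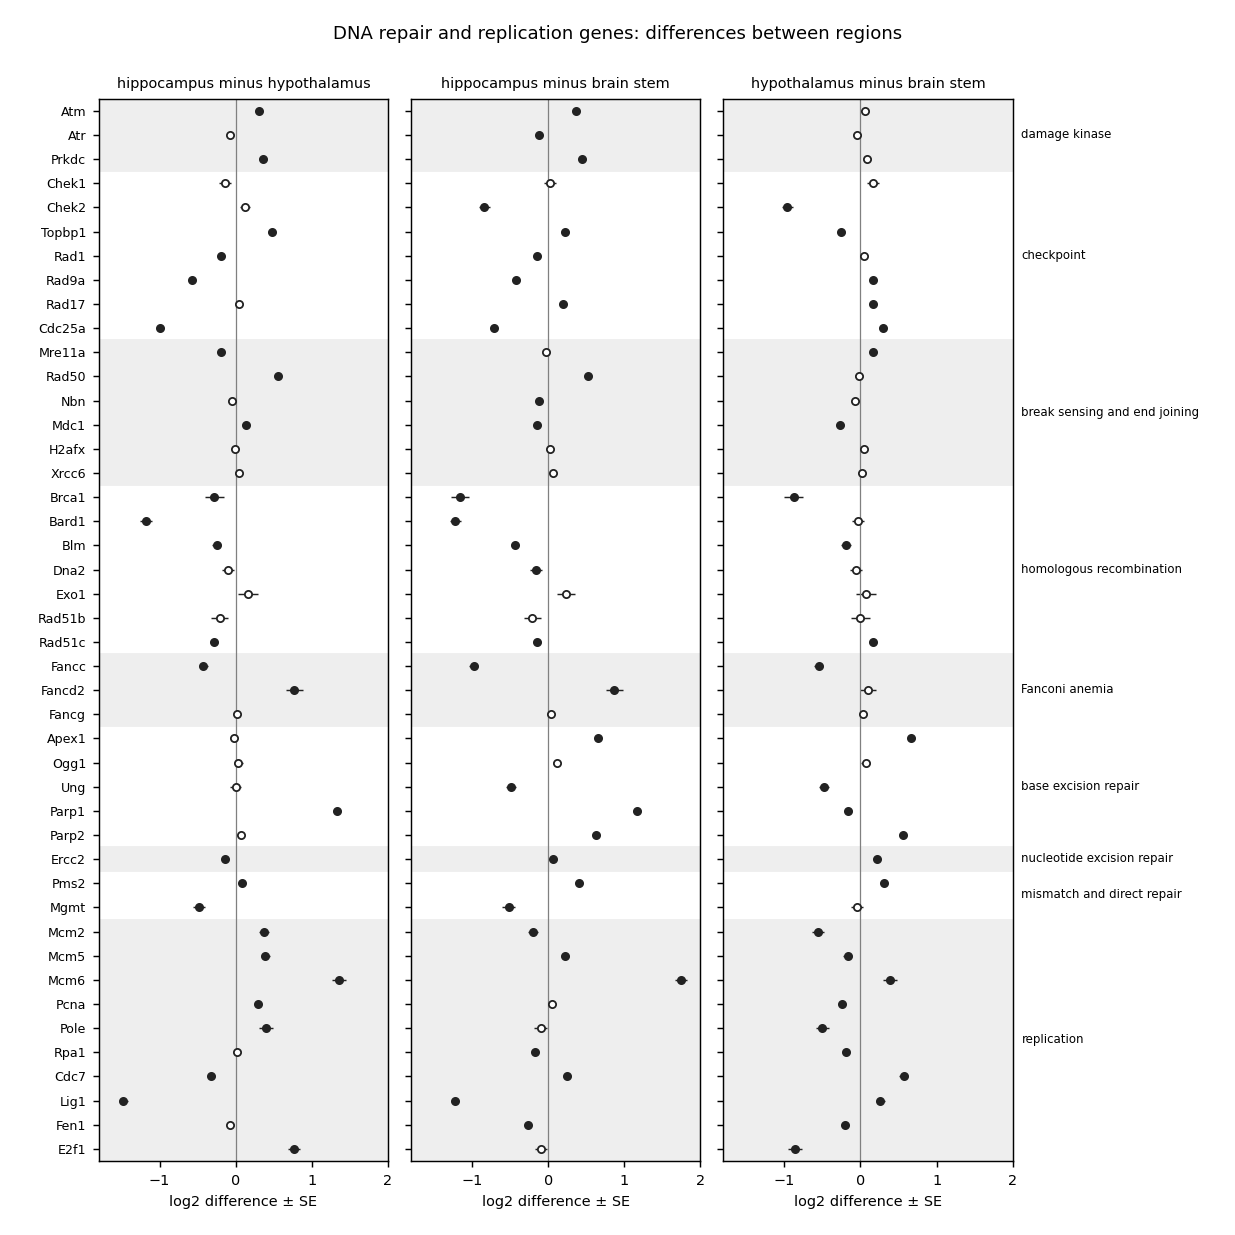
Log2 differences (x axis, ± SE) of 44 of the 46 members (y axis, grouped by role) between hippocampus, hypothalamus and brain stem. Filled points have an adjusted p under 0.05 and open points do not; Lig1 lies farthest to the left in the comparison of hippocampus with hypothalamus (-1.48) and Mcm6 farthest to the right in that of hippocampus with brain stem (1.75).

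Among the replication genes, the 3 helicase subunits had 3 different orders of the regions. Mcm6 was highest in hippocampus, where the 20 samples ran from 6.38 to 7.43 (median 6.92) and overlapped neither hypothalamus (4.80 to 6.23, median 5.65) nor brain stem (4.78 to 5.67, median 5.18). Its log2 difference was 1.36 ± 0.09 (SE) from hypothalamus (adjusted p = 5.15e-19) and 1.75 ± 0.08 from brain stem (adjusted p = 3.4e-24), and hypothalamus lay above brain stem by 0.39 ± 0.09 (adjusted p = 0.00015). Mcm5 was also highest in hippocampus (6.23 to 7.08, median 6.71) but lowest in hypothalamus (5.96 to 6.71, median 6.45), with overlapping ranges. Mcm2 was highest in brain stem (5.91 to 6.60, median 6.11) and lowest in hypothalamus (4.65 to 5.98, median 5.71), a difference of -0.56 ± 0.08 (adjusted p = 5.49e-09).

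Lig1, the ligase that seals Okazaki fragments and excision patches, was lowest in hippocampus (6.28 to 7.20, median 6.89), below every sample of hypothalamus (8.05 to 8.50) and of brain stem (7.87 to 8.40). The differences were -1.48 ± 0.06 (adjusted p = 2.19e-28) and -1.23 ± 0.05 (adjusted p = 4.43e-26), and hypothalamus lay above brain stem by 0.26 ± 0.06 (adjusted p = 9.13e-05), the order that Mcm6 also had for these regions. Cdc7, the kinase that fires replication origins, was highest in hypothalamus (mean 8.30 ± 0.21 SD, n = 17) and lowest in brain stem (7.72 ± 0.21, n = 19), a difference of 0.57 ± 0.06 (adjusted p = 9.25e-13). Pole, the catalytic subunit of the leading strand polymerase, was lower in hypothalamus than in brain stem, with a difference of -0.50 ± 0.09 (adjusted p = 2.7e-06). E2f1 was lowest in hypothalamus (mean 5.28 ± 0.49 SD, n = 17). Hippocampus minus hypothalamus was 0.77 ± 0.08 (adjusted p = 2.82e-11) and hypothalamus minus brain stem was -0.86 ± 0.09 (adjusted p = 2.73e-12). In vehicle mice alone the first of these E2f1 differences was 0.44 (adjusted p = 0.00363). Of the remaining replication members, Pcna had means of 10.49 (hippocampus), 10.20 (hypothalamus) and 10.44 (brain stem), Rpa1 10.31, 10.29 and 10.48, and Fen1 7.78, 7.86 and 8.07.

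**Figure D2:**
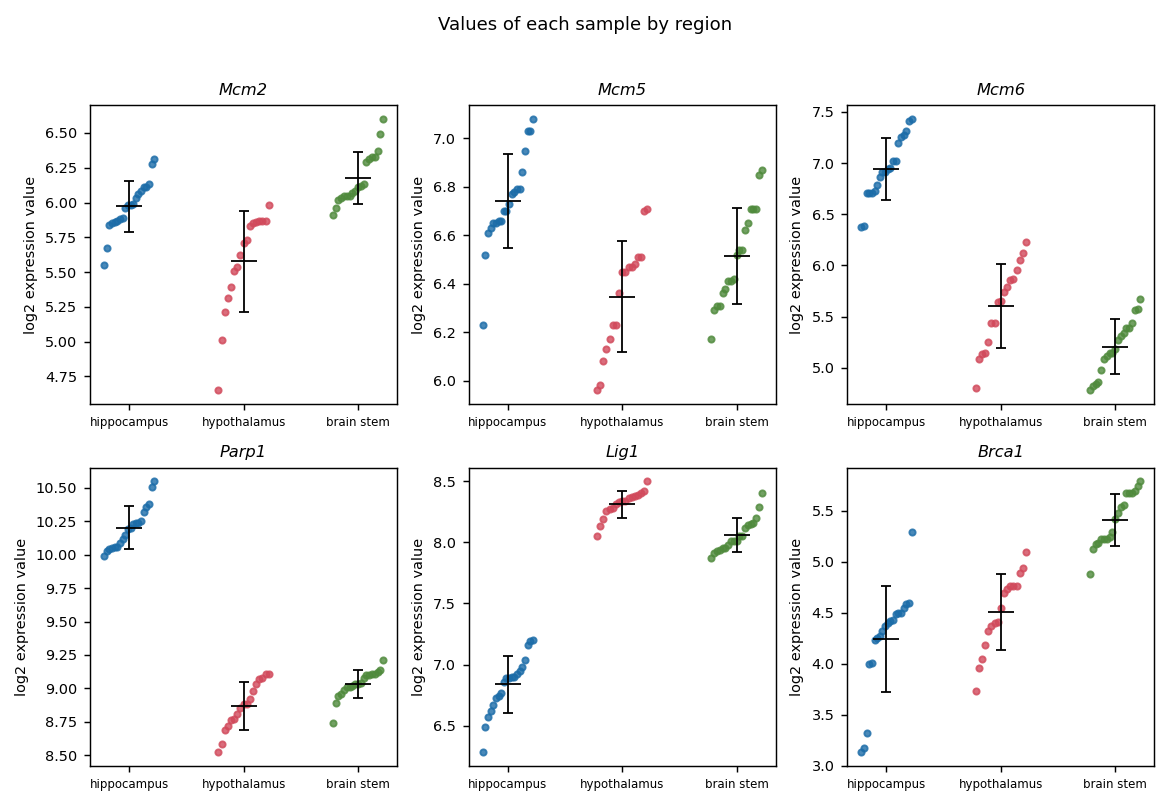
Log2 expression (y axis) of 6 members in each sample by region, with the mean and SD as bars. Mcm6 and Parp1 were highest and Lig1 lowest in hippocampus with no overlap with the other regions, and Brca1 was highest in brain stem. How many other genes separate the regions in this way was not counted.

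Of 8 homologous recombination genes, 5 were lower and 0 higher in hippocampus than in hypothalamus, beside 41.4% and 30.3% of all genes, with a median difference of -0.27 beside -0.05. Against brain stem 6 of 8 were lower and 0 higher, beside 41.7% and 34.9% of all genes (median -0.33 beside -0.03). Bard1, the partner of BRCA1, had values of 4.64 to 5.65 in hippocampus, under all those of hypothalamus (5.72 to 6.85) and brain stem (5.93 to 6.70), with differences of -1.18 ± 0.08 (adjusted p = 4.13e-19) and -1.22 ± 0.07 (adjusted p = 1.98e-20). Brca1 was highest in brain stem (4.88 to 5.79, median 5.42), above hippocampus (3.13 to 5.29, median 4.38) and hypothalamus (3.73 to 5.10, median 4.55), and the ranges overlapped. The difference from brain stem was -1.16 ± 0.12 for hippocampus (adjusted p = 1.15e-12) and -0.88 ± 0.12 for hypothalamus (adjusted p = 1.9e-08). The helicase Blm had means of 6.34 (hippocampus), 6.58 (hypothalamus) and 6.79 (brain stem). Rad51c, which acts in homologous recombination, had means of 6.98, 7.26 and 7.11 in the same order, Dna2 5.05, 5.17 and 5.22, Rad51b 4.12, 4.37 and 4.34, and Exo1 4.63, 4.49 and 4.40.

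Base excision repair genes differed among themselves in their regional pattern. Parp1, which binds strand breaks and builds poly(ADP-ribose) chains, was higher in all hippocampus samples (9.99 to 10.55, median 10.2) than in any of hypothalamus (8.52 to 9.11) or brain stem (8.74 to 9.21), by 1.33 ± 0.05 (adjusted p = 5.7e-29) and 1.17 ± 0.05 (adjusted p = 9.14e-28). Its relative Parp2 and the endonuclease Apex1 were instead low in brain stem alone. Parp2 was 8.27 to 8.67 there against 8.85 to 9.25 in hypothalamus (difference 0.56 ± 0.04, adjusted p = 2.44e-18), and Apex1 was 8.99 to 9.42 against 9.74 to 10.19 (0.67 ± 0.04, adjusted p = 8.43e-22). Ung, which removes uracil, had means of 5.87 (hippocampus), 5.83 (hypothalamus) and 6.35 (brain stem), and Ogg1, which removes oxidized guanine, 6.80, 6.78 and 6.70.

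In the checkpoint group, Chek2, a kinase downstream of ATM, was highest in brain stem (6.23 to 6.83), above hippocampus (5.28 to 6.06) and hypothalamus (5.16 to 6.05) without overlap. The differences were -0.84 ± 0.07 for hippocampus (adjusted p = 3.92e-16) and -0.96 ± 0.07 for hypothalamus (adjusted p = 5.78e-17). Cdc25a, a phosphatase that checkpoint kinases target, was lowest in hippocampus (7.88 to 8.44) and did not overlap hypothalamus (8.91 to 9.44) or brain stem (8.45 to 9.03), with differences of -0.99 ± 0.04 (adjusted p = 4.83e-26) and -0.71 ± 0.04 (adjusted p = 3.62e-21). Rad9a, part of the clamp that is loaded at damage, was lower in hippocampus than in hypothalamus, with a difference of -0.58 ± 0.04 (adjusted p = 7.03e-17). Means in hippocampus, hypothalamus and brain stem were 5.56, 5.68 and 5.54 for Chek1, 7.41, 6.92 and 7.18 for Topbp1, 8.74, 8.93 and 8.88 for Rad1, and 8.41, 8.38 and 8.21 for Rad17. Of the damage kinases, Atm (9.10, 8.80 and 8.73) and Prkdc (9.05, 8.68 and 8.60) were highest in hippocampus by both of its comparisons, and Atr had means of 8.20, 8.28 and 8.32.

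Members of the same complex also differed. Rad50 was higher in hippocampus than in hypothalamus by 0.55 ± 0.05 (adjusted p = 4.1e-15), while its partners in the break-sensing complex had means of 8.46 (hippocampus), 8.65 (hypothalamus) and 8.49 (brain stem) for Mre11a and 8.25, 8.30 and 8.37 for Nbn. The other break response genes had means in that order of 7.93, 7.80 and 8.06 for Mdc1, 10.39, 10.40 and 10.36 for H2afx and 8.30, 8.25 and 8.23 for Xrcc6. In the Fanconi anemia group, Fancd2 (means 4.72, 3.95 and 3.86) was higher in hippocampus (by 0.77 ± 0.11 against hypothalamus, adjusted p = 3.74e-08, and 0.87 ± 0.11 against brain stem, adjusted p = 4.7e-10), at low levels. Fancc went the other way, with differences from brain stem of -0.98 ± 0.06 for hippocampus (adjusted p = 3.68e-20) and -0.55 ± 0.06 for hypothalamus (adjusted p = 1.69e-10), and Fancg had means of 7.80, 7.78 and 7.76. The mismatch repair gene Pms2 had means of 9.02, 8.95 and 8.63. Mgmt, which reverses alkylated guanine, had means of 5.78, 6.28 and 6.30, and Ercc2, a helicase of nucleotide excision repair, 8.96, 9.10 and 8.89. Of 13 damage response genes outside the rule, 10 were lower and 1 higher in hippocampus than in hypothalamus (41.4% and 30.3% of all genes), for example Gadd45a (-0.82 ± 0.05, adjusted p = 3.94e-19). This count covers hypothalamus only. Between hippocampus and brain stem, means ran both ways, with 7.65 and 8.73 for Gadd45a but 8.02 and 7.67 for Trp53. Of 10 proliferation genes outside the rule, 5 were lower and 2 higher in hippocampus than in hypothalamus, beside 41.4% and 30.3% of all genes. Examples were Stmn1 (-1.35 ± 0.08, adjusted p = 9.09e-21) and Top2a (0.52 ± 0.09, adjusted p = 1.84e-06). Stmn1 reached 15.36 in hypothalamus, the highest value in the data, and whether its level follows cell division was not tested.

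Within groups, members varied together only loosely. After each of the 12 group means was removed, the median Pearson r over 1035 member pairs was 0.07 across 56 samples, beside 0.00 over all gene pairs, and r reached 0.5 in 1.55% of member pairs and 1.29% of all pairs. The closest pair was Atm and Prkdc at r = 0.64, with 0.60 for hippocampus, 0.39 for hypothalamus and 0.77 for brain stem, followed by Nbn with Prkdc (0.59). The most opposed was H2afx with Pcna (-0.51). Samples of the same mouse and a shared normalization enter these values, which are a description.

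For the question of whether a peripheral tumor altered these genes in the brain, no member passed the test in any region. With phases averaged, 0 of 46 members were called in hippocampus, hypothalamus and brain stem (limma, adjusted p under 0.05), beside 0.52%, 0.26% and 1.04% of all genes. At an unadjusted p under 0.05 there were 1, 3 and 2 members, beside 6.37%, 7.14% and 6.5% of all genes. At mid dark 0 members were called, beside 0.13% (hippocampus), 0% (hypothalamus) and 0.26% (brain stem) of genes, and 3, 1 and 1 members had an unadjusted p under 0.05 (background 6.63%, 4.81% and 7.28%). At mid light 0 were called, beside 0.13%, 0% and 0.78%, and 0, 3 and 1 had an unadjusted p under 0.05 (background 6.89%, 5.19% and 4.81%). For hippocampus the median absolute log2 difference of the members was 0.04, for hypothalamus 0.06 and for brain stem 0.05.

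**Figure D3:**
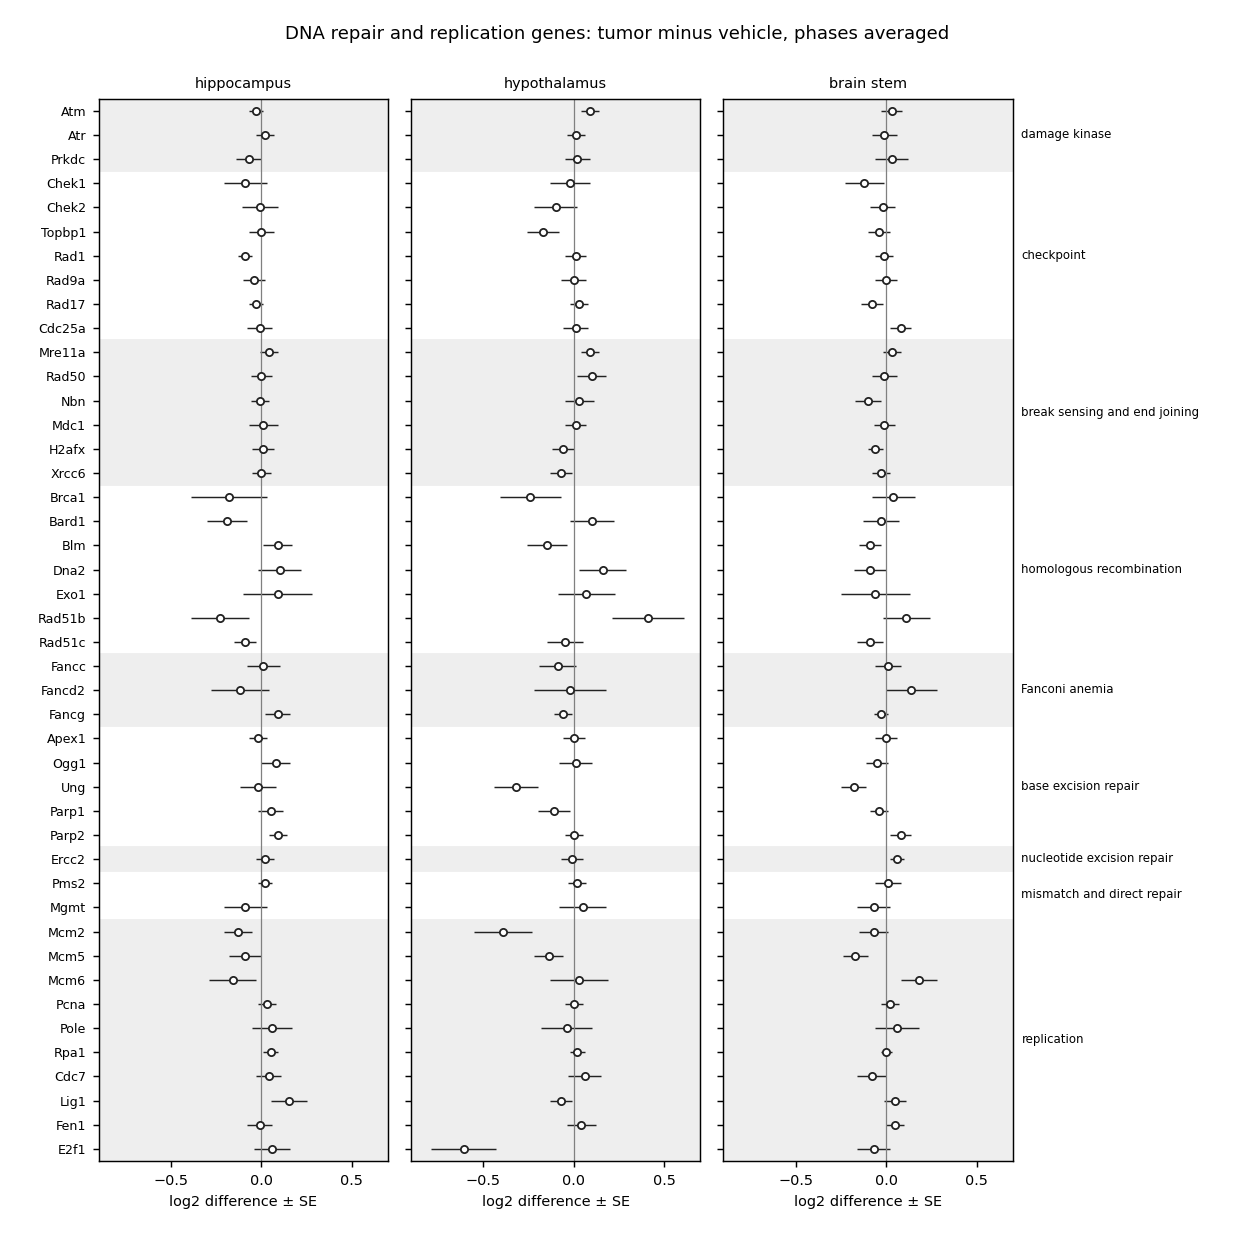
Tumor minus vehicle log2 differences (x axis, ± SE) of 44 of the 46 members (y axis, grouped by role) in each region, averaged over mid dark and mid light. All points are open, since none had an adjusted p under 0.05; E2f1 in hypothalamus lies farthest to the left (-0.61).

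The largest of these differences was that of E2f1 in hypothalamus. Its values in tumor-bearing mice were 4.41 to 5.69 (median 5.06, n = 10) against 5.32 to 6.38 (median 5.45, n = 7) in vehicle mice, so the groups overlapped. At mid light the 5 tumor-bearing mice had 4.50, 5.25, 5.02, 5.16 and 4.41, all below the 4 vehicle mice (5.82, 5.45, 5.61 and 5.32). E2f1 was picked here for its large difference, and how many other genes separate these groups was not counted. At mid dark tumor-bearing mice had 4.84, 5.69, 5.09, 4.84 and 5.52 and vehicle mice 6.38, 5.39 and 5.41, which overlapped. The difference was -0.61 ± 0.18 with phases averaged (limma, unadjusted p = 0.00464, adjusted p = 0.365) and -0.68 ± 0.25 within mid light (adjusted p = 0.642). For hippocampus it was 0.06 ± 0.10 and for brain stem -0.07 ± 0.09, and whether the tumor difference itself varied between regions was not tested.

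**Figure D4:**
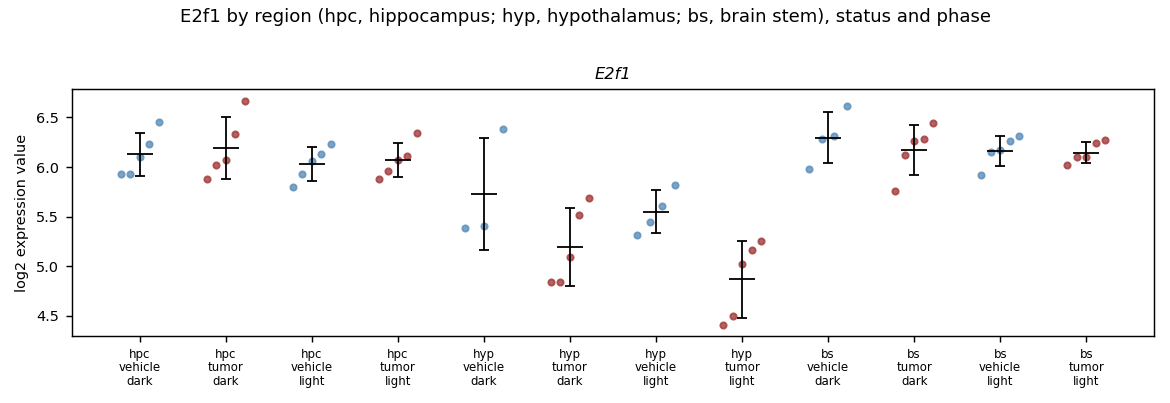
E2f1 log2 expression (y axis) in each sample by region, injection and phase (x axis), with the mean and SD as bars, blue for vehicle and red for tumor. The 5 tumor samples of hypothalamus at mid light lie between 4.41 and 5.25, below the 4 vehicle samples, a difference that did not pass the test.

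Other members with the smallest p-values had smaller differences. In hypothalamus Ung differed by -0.32 ± 0.12 (adjusted p = 0.365) and Mcm2 by -0.39 ± 0.16 (adjusted p = 0.456). In brain stem Ung differed by -0.18 ± 0.07 (adjusted p = 0.681), Mcm5 by -0.17 ± 0.07 (adjusted p = 0.701) and Mcm6 by 0.18. In hippocampus Rad1 differed by -0.09 ± 0.04 (adjusted p = 0.678), followed by Bard1 (-0.19 ± 0.11) and Parp2 (0.09 ± 0.05). At mid dark, the smallest p-value of a region belonged to Pms2 in hippocampus (0.14, adjusted p = 0.621), to Atm in hypothalamus (0.18, adjusted p = 0.888) and to Cdc25a in brain stem (0.18, adjusted p = 0.652). For mid light it belonged to Pms2 in hippocampus (-0.10), to E2f1 in hypothalamus and to Mcm5 in brain stem (-0.36 ± 0.10, adjusted p = 0.147). Averaged over the regions with mouse as a block, a comparison chosen after the data were seen, 0 members were called beside 2.34% of all genes, and 4 had an unadjusted p under 0.05 (background 9.48%). They were E2f1, Mcm2, Mcm5 and Ung, with differences of -0.21, -0.19, -0.13 and -0.18.

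A few members differed by time of day. Mid dark exceeded mid light in 2 of 46 members in hippocampus (limma, 4.35%, beside 5.59% of 769 genes called), Rad51c and Cdc7, and in 1 in brain stem (2.17%, beside 4.94%), Rad51c. In hypothalamus 0 were called, beside 2.34%, and 9 had an unadjusted p under 0.05 (background 13.2%). In hippocampus of tumor-bearing mice, Rad51c was 6.98, 7.08, 7.07, 7.04 and 7.01 for the mid dark samples and 7.02, 6.75, 6.89, 6.94 and 6.60 for the mid light samples. In vehicle mice the mid dark samples had 7.21, 7.02, 7.17, 7.45 and 7.25 and the mid light samples 7.05, 6.85, 6.69, 6.82 and 6.71. Mid dark values were mostly the higher, with a small overlap, and the difference was 0.30 ± 0.06 (adjusted p = 0.0103). In brain stem the 9 mid dark samples ran from 6.94 to 7.44 (median 7.33) and the 10 mid light samples from 6.85 to 7.19 (median 6.92), a difference of 0.26 ± 0.07 (adjusted p = 0.0411). Without samples of a purity ratio under 1.8 the difference was 0.30 (adjusted p = 0.103). With 1 mouse left out at a time, the adjusted p ran from 0.0185 to 0.0985 and was above 0.05 without mouse 1, 3, 4, 5, 6, 7, 9, 11, 12, 22, 23, 28, 29 or 30. In hypothalamus it was 0.27 ± 0.10 (adjusted p = 0.258). Relative to the panel reference genes, the Rad51c difference was 0.25 both for hippocampus (adjusted p = 0.0534) and for brain stem (adjusted p = 0.0502), where neither passed.

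Cdc7 in hippocampus ran from 7.97 to 8.25 (median 8.10, n = 10) at mid dark and from 7.57 to 8.04 (median 7.88, n = 10) at mid light. These ranges overlapped between 7.97 and 8.04. The difference was 0.30 ± 0.07 (adjusted p = 0.0169), and 0.25 (adjusted p = 0.146) relative to reference genes. It was 0.20 ± 0.09 in hypothalamus (adjusted p = 0.328) and 0.21 ± 0.08 in brain stem (adjusted p = 0.207).

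**Figure D5:**
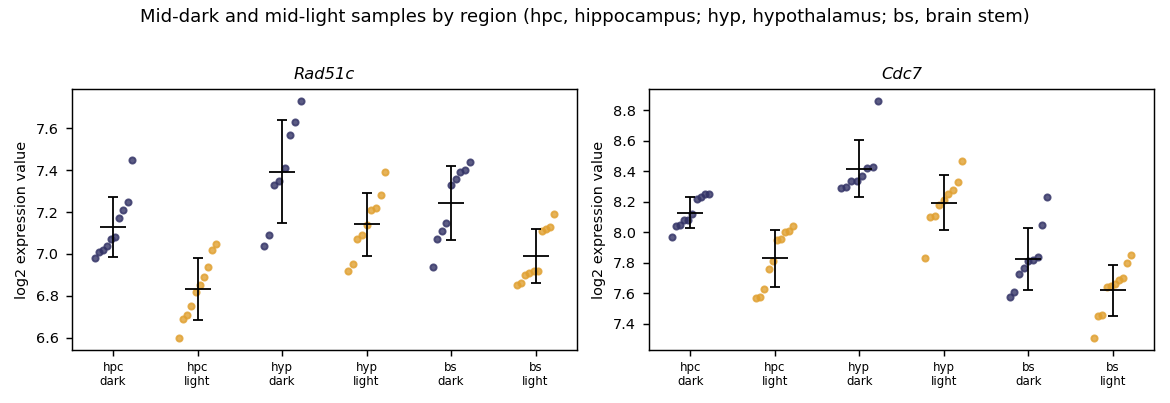
Log2 expression (y axis) of Rad51c and Cdc7 in each sample at mid dark and mid light (x axis) by region, with the mean and SD as bars. In hippocampus the mid dark means were 7.13 for Rad51c and 8.13 for Cdc7, above the mid light means of 6.83 and 7.83.

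In hypothalamus the helicase subunits Mcm5 and Mcm6 had lower values at mid dark but did not pass the test. Mcm5 was 5.96 to 6.51 (median 6.15, n = 8) at mid dark and 6.23 to 6.71 (median 6.47, n = 9) at mid light, a difference of -0.30 ± 0.08 (limma, adjusted p = 0.0536; without mouse 8, 9 or 23 it passed, at up to 0.034). Mcm6 was 4.80 to 5.87 (median 5.29) and 5.25 to 6.23 (median 5.86), a difference of -0.54 ± 0.16 (adjusted p = 0.102; 0.0376 without mouse 13 and 0.0208 without mouse 28). Chek1 differed by 0.30 ± 0.11 (adjusted p = 0.237). Averaged over the 3 regions with mouse as a block, a comparison chosen after the data were seen, 4 of 46 members were called (8.7%, beside 13.5% of all genes), 2 higher at mid dark (background 8.05%) and 2 lower (background 5.45%). Rad51c was higher by 0.27 ± 0.05 (adjusted p = 6.05e-05) and Cdc7 by 0.24 ± 0.05 (adjusted p = 0.00104). Mcm6 (-0.31 ± 0.09, adjusted p = 0.00943) and Pms2 (-0.11 ± 0.03, adjusted p = 0.0211) were lower. Pms2 was not called without mouse 8, without mouse 30 or without samples of a purity ratio under 1.8. Rad51c, Cdc7 and Mcm6 were called in each of these settings. Leaving out mouse 1, a tumor-bearing mouse at mid light, raised the count of members called from 4 to 9. Among the 13 damage response genes outside the rule, Cdkn1a, an inhibitor of cyclin-dependent kinases, was higher at mid dark by 0.38 ± 0.05 (adjusted p = 3.82e-07) in the same comparison. It is a single example beside 8.05% of all genes called higher, and does not stand for the rest of that list.

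Whether the tumor difference depended on phase was tested as an interaction, and 0 members and 0% of all genes were called in hippocampus, hypothalamus and brain stem (limma). At an unadjusted p under 0.05 there were 1, 0 and 1 members, beside 6.11%, 2.6% and 3.64% of genes. The smallest p-values belonged to Pms2 in hippocampus (0.24 ± 0.08, adjusted p = 0.509), Atm in hypothalamus (0.17) and Mcm5 in brain stem (0.38 ± 0.15, adjusted p = 0.936). The mid dark values of Pms2 in hippocampus were 8.99 to 9.07 with a tumor and 8.85 to 8.95 with vehicle. Those of mid light were 8.89 to 9.15 and 9.03 to 9.25. The groups did not overlap at mid dark and overlapped at mid light. Pms2 was picked for its small p-value, and how many other genes separate in this way was not counted.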

How the data were processed

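Tissue RNA was hybridized to the nanoString nCounter Mouse Neuroinflammation Panel. The authors subtracted background and normalized counts in nSolver, followed by quantile normalization with Partek software. The table that the authors deposited holds log2 values for 770 genes, which were used as given. Since no counts entered, depth per sample is unknown, and precision rests on how many mice were sampled. Groups came from the sample labels, and 4 of the 60 samples had no values.

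Regions were compared in limma (version 3.58.1, R 4.3.3) with 12 group means and mouse as a random block, since regions share mice (consensus correlation 0.136). Tumor, phase and their interaction were fitted within each region with 4 group means. Genes with 1 value in a region were left out, leaving 769 in hippocampus and brain stem. Calls needed an adjusted p under 0.05 over all genes, and the scripts were tested on simulated data. Named with statistics were the 10 largest called differences between regions, called members or the 3 smallest p-values for tumor and phase, the smallest p-value within phases and for the interaction, and E2f1. Levels of Pcna and Fancd2, which the rule also named, stand with their groups. Further genes are given as means or, from lists outside the rule, as examples. The 10 alternative settings changed the test, filter, scaling, purity, block or samples, and each of 20 mice was left out in turn. Members and lists were chosen with earlier results of these data known. Promoter sequences are from RefSeq (GRCm38.p6). Among the 46 members, 2 stay in all tests and counts but are not reported here by name.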

Additional observations from a re-analysis of the deposited data

Results flagged for a closer look

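Among 73 groups of 4 or 5 samples behind the named tumor, phase and interaction results, 3 held a sample set apart from the rest by Dixon's ratio (4.11%), and chance alone flags about 1 in 20 groups. Mcm5 in hypothalamus of vehicle mice at mid light was 6.71 in mouse 30, against 6.47 to 6.51 in the others. Rad51c in brain stem of tumor-bearing mice at mid light was 7.19 in mouse 13, against 6.85 to 6.92. Cdc25a in brain stem of vehicle mice at mid light was 8.79 in mouse 22, against 8.88 to 8.91.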

How the results depend on the processing

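Counts of members called between regions stayed within 1.5 times of the reported ones under every setting tried. With no replicate block they were 29, 34 and 28, and with a fixed replicate block, which pairs the regions of a mouse, 28, 34 and 31, for hippocampus against hypothalamus, hippocampus against brain stem and hypothalamus against brain stem. Scaling to reference genes shifted the comparisons with hypothalamus by 0.11 and -0.13 and gave 36, 35 and 32. For tumor and interaction the count was 0 under all settings run. For phase, scaling to reference genes took hippocampus from 2 to 0. In brain stem the same scaling left the count at 1, but the member called was Cdc25a (-0.21, adjusted p = 0.0247) and not Rad51c. In hypothalamus the filter on low values and median centring each gave 1, and leaving out a mouse gave 0 to 1. In brain stem the ordinary p-value and the filter on low values each gave 3, median centring 2, samples with a purity ratio of at least 1.8 gave 0, and leaving out a mouse gave 0 to 1. For phase averaged over regions, the fit with no replicate block gave 10, and leaving out a mouse gave 3 to 9. The cause was not tested. Of 1570 values of named results under other settings, 1544 kept their direction and side of the threshold, 18 lost and 7 gained a call, and 1 changed sign: E2f1 for tumor in hippocampus, which ran from 0.00 without mouse 7 to 0.10 without mouse 3. All calls lost or gained were among the phase results within a region. Many of the values belong to region differences named for their size, and none of those changed. Mcm6 and Pms2 for phase averaged over regions are not among the values.

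Few mice per group, quantile normalization that makes each value relative, and values near the low end for 4 members limit what small differences can show.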
